A study of Mus musculus with 6 samples.

Results

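The genes described are 10 members of the tumour necrosis factor (TNF) superfamily, 6 ligands and 4 receptors, of 38896 genes listed in cultured mouse colonic fibroblasts, the connective-tissue cells under the epithelium of the large bowel. They were taken by symbol, their transcripts were summed, and their levels were scaled by library size and compared between cultures labelled DSS and Ctrl, paired by mouse. The list was drawn up with this comparison in view, so the difference between the groups in these 10 genes is given as a description and carries no test. Both groups came from the distal colons of 3 mice aged 6 weeks, numbered 1716, 1717 and 1718, each of which gave 1 DSS and 1 control culture, grown for 2 passages and then held for 24 h in conditioned medium. Inflammatory medium is read here as that of the DSS libraries (n = 3), and control medium as that of the Ctrl libraries (n = 3). DSS is the usual abbreviation of dextran sulfate sodium, which induces colitis in mice. The labels do not state how the medium was made, nor the strain or sex of the mice. The series concerns colonic primary cilia, inflammation and carcinogenesis.

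Ligands of the TNF superfamily are mostly membrane proteins that assemble as trimers and can be shed, and their receptors pass the signal on through TRAF adaptors or, in receptors with a death domain, through TRADD or FADD. The outcome ranges from nuclear factor kappa B (NF-kappaB) signalling to caspase-driven death and necroptosis. In the bowel TNF itself is a target of treatment in inflammatory bowel disease, and fibroblasts are among the cells that respond to it. Several other ligands, such as those encoded by Tnfsf18, Tnfsf9 and Tnfsf15, are best known for costimulating T cells.

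Levels below are in CPM, estimated counts scaled to a common library size with TMM factors, with library totals of 17293680 to 19482938 estimated counts. All 9 fibroblast markers examined were above 1 CPM in every library, with a summed level of 20128 to 24719 CPM in DSS and 37349 to 44061 CPM in control. Most of that sum was Col1a1, Col1a2 and Col3a1, which fell, and the markers did not move together, as 5 fell and 1 rose by edgeR. The one that rose was Pdgfra, at 980 CPM in DSS and 599 CPM in control (edgeR adjusted p = 0.0178), and Dcn averaged 2362 CPM in DSS and 1708 CPM in control (0.0557). All 8 macrophage markers were also above 1 CPM in every library. They summed to 1237 to 2044 CPM in DSS and 1945 to 2822 CPM in control. Of these markers Cd68 rose while Lyz2, Itgam and Aif1 fell in DSS cultures (edgeR, adjusted p under 0.05). Several of the 10 genes are also known in macrophages, and the part of these cells in the results below was not tested. Lymphocyte markers summed to 7.97 to 9.64 CPM in DSS and 6.69 to 9.17 CPM in control. Of these 8 markers 3 (Cd3d, Cd4 and Cd8a) were above 1 CPM in every library, and Cd3g was at 0 throughout. Neutrophil markers summed to 9.28 to 13.9 CPM in DSS and 8.49 to 8.97 CPM in control. Of these 6 markers 2 (S100a8 and Csf3r) were above 1 CPM in every library, and S100a9 and Elane were at 0. Epithelial markers summed to 2.16 to 3.46 CPM in DSS and 3.73 to 5.10 CPM in control, and endothelial markers to 12.7 to 17 CPM in DSS and 15.7 to 22.2 CPM in control. In bulk RNA, fewer cells of a type and less RNA per cell cannot be told apart.

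Promoters of 8 of the 10 genes were found in RefSeq's GRCm38.p6 table, as windows of 300 bases around the annotated start, and Cd40 and Tnfsf9 had no entry. The motifs searched, on both strands, were NF-kappaB (GGG, any 2 bases, TT, any 1 base, CC), the interferon-stimulated response element ISRE (GAAA, any 2 bases, GAAA), the interferon-gamma activated site GAS (TTCNNNGAA), AP-1 (TGANTCA) and the TATA box (TATAAA). Of all 32851 promoter windows 4.79% held the NF-kappaB letters, 3.44% ISRE, 8.3% GAS, 7.81% AP-1 and 13.6% TATA. The 5 windows below belong to the ligand with the largest difference (Tnfsf18), to Tnf, which has the same core promoter letters, and to 3 members with ISRE, GAS or AP-1 letters. Matches are in capitals and mark letters, not sites of binding.
Tnfsf18 (chr1:161494407-161494706, plus strand): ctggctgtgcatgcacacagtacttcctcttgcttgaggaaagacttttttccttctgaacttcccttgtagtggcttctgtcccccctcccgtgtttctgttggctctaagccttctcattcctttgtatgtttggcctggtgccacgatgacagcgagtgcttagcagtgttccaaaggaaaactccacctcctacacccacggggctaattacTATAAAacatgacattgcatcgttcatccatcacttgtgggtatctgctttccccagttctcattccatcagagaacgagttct
Tnf (chr17:35201958-35202257, minus strand): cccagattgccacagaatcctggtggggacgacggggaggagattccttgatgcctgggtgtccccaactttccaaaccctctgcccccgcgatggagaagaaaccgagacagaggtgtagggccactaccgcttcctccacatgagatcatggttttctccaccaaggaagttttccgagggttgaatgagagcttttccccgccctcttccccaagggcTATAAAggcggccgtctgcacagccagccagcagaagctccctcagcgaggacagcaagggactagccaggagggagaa
Tnfrsf1b (chr4:145246821-145247120, minus strand): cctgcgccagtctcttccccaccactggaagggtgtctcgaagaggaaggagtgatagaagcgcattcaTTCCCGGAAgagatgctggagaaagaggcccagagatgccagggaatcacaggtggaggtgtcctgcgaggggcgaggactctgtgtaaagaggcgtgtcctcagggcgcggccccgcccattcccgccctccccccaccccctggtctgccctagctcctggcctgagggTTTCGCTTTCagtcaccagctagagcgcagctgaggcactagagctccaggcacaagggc
Fas (chr19:34290409-34290708, plus strand): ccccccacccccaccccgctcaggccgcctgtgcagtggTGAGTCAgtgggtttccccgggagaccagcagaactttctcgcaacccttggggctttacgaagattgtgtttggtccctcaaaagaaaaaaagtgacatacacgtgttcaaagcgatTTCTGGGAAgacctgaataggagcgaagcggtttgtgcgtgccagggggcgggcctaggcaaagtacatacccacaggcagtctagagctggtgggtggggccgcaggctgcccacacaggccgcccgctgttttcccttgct
Tnfsf13b, downstream start (chr8:10006383-10006682, plus strand): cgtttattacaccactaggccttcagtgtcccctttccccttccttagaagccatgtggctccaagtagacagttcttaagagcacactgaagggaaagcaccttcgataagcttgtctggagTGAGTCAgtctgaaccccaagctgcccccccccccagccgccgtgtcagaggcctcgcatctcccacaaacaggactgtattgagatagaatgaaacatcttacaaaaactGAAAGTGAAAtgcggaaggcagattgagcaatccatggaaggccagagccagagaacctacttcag

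Tnfsf18 and Tnf carried TATAAA, beginning 34 and 29 bases before their starts, and none of the other letters searched. Tnfrsf1b carried an ISRE match on the reverse strand (TTTCGCTTTC) ending at the base before the start and a GAS match further upstream. Fas carried GAS and AP-1 matches, the downstream window of Tnfsf13b ISRE and AP-1 matches, and Tnfrsf1a, not printed, 1 GAS match. The ISRE letters stood before a gene that was higher in DSS (Tnfrsf1b) and before the downstream start of one that was lower (Tnfsf13b). Any link between these letters and the differences was not tested. The windows of Tnfsf10 and Tnfsf15 held none of the 5 motifs, and the NF-kappaB letters were in none of the members' windows.

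Across the 10 genes, 7 had a higher and 3 a lower mean in DSS than in control. The higher ones were Fas, Cd40, Tnfsf15, Tnf, Tnfsf10, Tnfrsf1b and Tnfrsf1a, in falling order of the fitted log2 fold change, and the lower ones were Tnfsf18, Tnfsf13b and Tnfsf9. The sign was the same in all 3 mice for 10 of 10 genes, against 56.9% of the 19869 genes tested, and the DSS and control libraries did not overlap for 9 of 10, against 34.2% of genes tested. In the fit across all genes, 3 of the 10 (Tnfsf18, Cd40 and Fas) lay under edgeR's threshold, where 13.3% of genes tested did. With the mouse as a block 8 of 10 did, against 25.0%. Since the list was chosen on this contrast, nothing is read from these shares. The median fitted log2 fold change was 0.36 over the 10 genes and 0.01 over all genes tested.

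**Figure D1:**
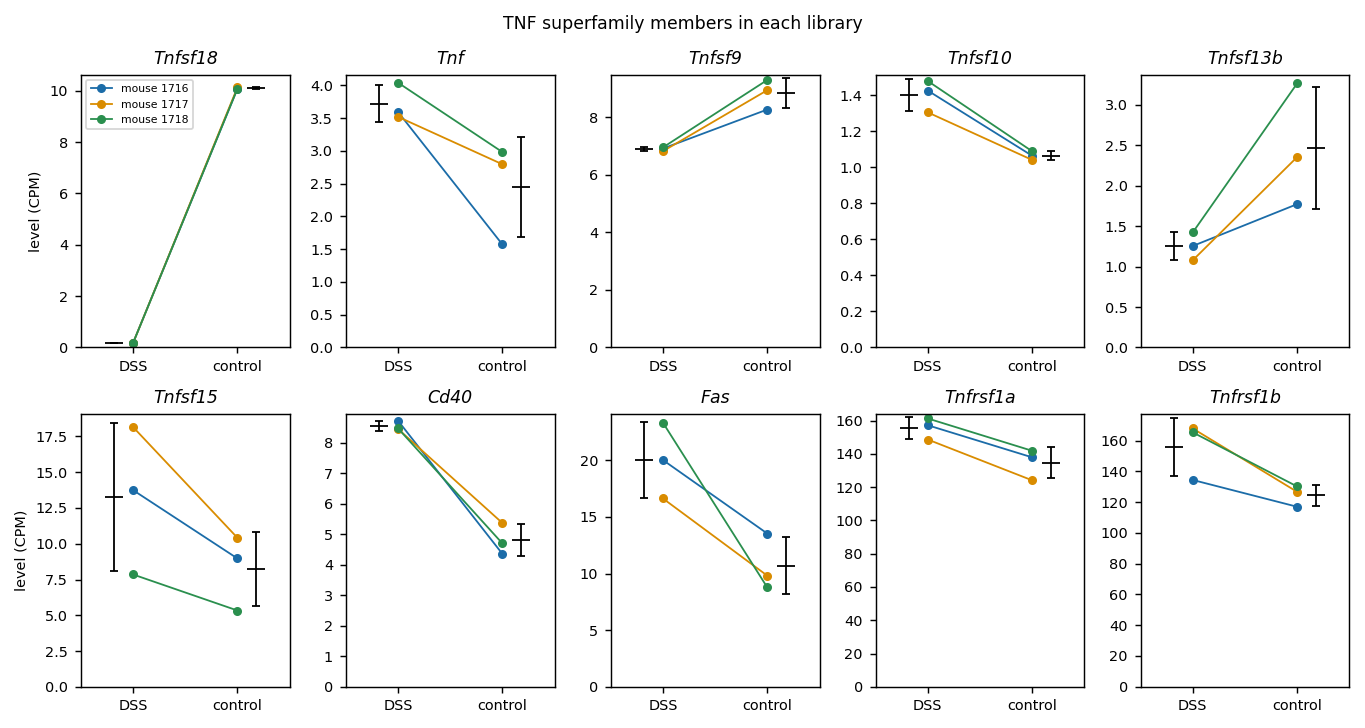
Level in CPM (vertical axes, each from 0) of the 10 genes in the 3 DSS and the 3 control libraries, joined by mouse, with black bars for mean and SD. Lines slope down to the right for 7 genes, which were higher in DSS, and up for Tnfsf18, Tnfsf9 and Tnfsf13b, and groups overlap for Tnfsf15 alone among these 10.

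Among the ligands, Tnfsf18 (NCBI Gene 240873, chromosome 1, 161494657 to 161505290, GRCm38), which binds the receptor GITR and costimulates T cells, was nearly lost from the DSS cultures. Each of the 3 DSS libraries held 3 counts, while the control libraries of mice 1716, 1717 and 1718 held 199, 185 and 176. Levels were 0.171, 0.170 and 0.171 CPM in DSS, against 10.1 CPM in each control library. The measured level of Tnfsf18 was thus nearly the same in all libraries of a group, and the groups lay far apart. Counting error alone is wider than this agreement, so no uniformity of the true level is read from it. A count of 3 has an exact Poisson interval of 0.619 to 8.77 counts, which bounds how closely any 1 DSS library fixes the level. Over the group, 9 counts in DSS and 560 in control put DSS at 1.69% of the control level, with an exact 95% interval of 0.769 to 3.23% that covers counting error only. Within single mice the ratio was 1.68 to 1.70%, and the exact intervals of the 3 mice lay within 0.343 to 5.03%.

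Tnf, the founding ligand of the family (NCBI Gene 21926, chromosome 17, 35199367 to 35202007), was at 3.59, 3.52 and 4.04 CPM in the DSS libraries of mice 1716, 1717 and 1718 and at 1.57, 2.79 and 2.98 CPM in control. These are low levels, from 31 to 71 counts per library. The groups did not overlap, but the log2 ratio of DSS to control was 1.19 in mouse 1716, whose control library was the lowest, and 0.33 and 0.44 in mice 1717 and 1718. The fitted log2 fold change was 0.61, and it was 0.36 without the control library of mouse 1716. All of its counts fell to 1 of the 2 transcripts listed.

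Tnfsf15 (NCBI Gene 326623, chromosome 4, 63724600 to 63745059), which encodes TL1A, a ligand that costimulates T cells and whose human gene is linked to inflammatory bowel disease, differed more between mice than between groups. It was at 13.8, 18.2 and 7.85 CPM in DSS against 8.97, 10.4 and 5.33 CPM in control, in the order of mice 1716, 1717 and 1718. Groups overlapped, and mouse 1718 was lowest and mouse 1717 highest in both. Within mice the log2 ratio was 0.62, 0.80 and 0.56, a mean of 0.66 ± 0.13 (SD, n = 3). Fitted without pairing, the log2 fold change ran from 0.39 without the DSS library of mouse 1717 to 0.95 without that of mouse 1718.

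Tnfsf10 (NCBI Gene 22035, chromosome 3, 27317077 to 27339665), which encodes the death ligand TRAIL, was scarce, with 19 to 26 counts per library. It was at 1.43, 1.31 and 1.48 CPM in DSS and 1.06, 1.04 and 1.09 CPM in control. The groups did not overlap, and the ratio of mean levels was 1.32.

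The other ligands were lower in DSS. Tnfsf9 (NCBI Gene 21950, chromosome 17, 57105287 to 57107758), which engages Tnfrsf9 on activated T cells, was at 6.90, 6.81 and 6.94 CPM in DSS and 8.26, 8.93 and 9.29 CPM in control. The DSS libraries were close together and all below the control libraries, with a ratio of mean levels of 0.780. Its curated transcript held 70.4% of the gene's counts in DSS and 80.1% in control, and a predicted transcript the rest. These shares are estimates from 120 to 163 counts per library. The predicted transcript ran from 22.2 to 47.6 counts within control, and a shift between groups was not tested. Tnfsf13b (NCBI Gene 24099, chromosome 8, 10006229 to 10036000), which encodes the B-cell survival factor BAFF, was at 1.26, 1.08 and 1.42 CPM in DSS and 1.77, 2.36 and 3.27 CPM in control. Its counts were low, 19 to 57 per library, and the difference was smallest in mouse 1716, with log2 ratios of -0.50, -1.13 and -1.20 in mice 1716, 1717 and 1718.

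Among the receptors, Fas (NCBI Gene 14102, chromosome 19, 34290647 to 34327775), a death receptor that recruits FADD and caspase-8, had the largest difference. It was at 20.03, 16.6 and 23.3 CPM in DSS and 13.5, 9.81 and 8.77 CPM in control. All DSS libraries were above all control libraries, and mouse 1718, lowest in control, was highest in DSS. The log2 ratio was 0.57, 0.76 and 1.41 in mice 1716, 1717 and 1718, and the ratio of mean levels was 1.87. Of the 8 transcripts listed, the same curated one held 68.7% of counts in DSS and 63.7% in control.

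Cd40 (NCBI Gene 21939, chromosome 2, 165055614 to 165071654), which answers to CD40 ligand on T cells and platelets, was at 8.73, 8.46 and 8.48 CPM in DSS and 4.36, 5.37 and 4.70 CPM in control. The libraries within each group were close together and the groups were well apart, with a ratio of mean levels of 1.78 and log2 ratios of 1.002, 0.66 and 0.85. Its counts fell on 6 of the 9 listed transcripts, none with more than 32.3% of the gene's counts in DSS or 34.1% in control. These shares are likelihood estimates from 82 to 153 counts per library, and single transcripts came and went between libraries of a group, so which transcript made up the difference was not tested.

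The TNF receptors were the most abundant of the 10 genes and differed least in proportion. Tnfrsf1a (NCBI Gene 21937, chromosome 6, 125349723 to 125362483), the receptor with a death domain that most cells carry, was at 157, 149 and 161 CPM in DSS and 138, 124 and 142 CPM in control. Tnfrsf1b (NCBI Gene 21938, chromosome 4, 145212368 to 145246870), which lacks a death domain and binds TRAF2, was at 134, 168 and 165 CPM in DSS and 117, 127 and 130 CPM in control. In both genes the lowest DSS library was just above the highest control library. The ratio of mean levels was 1.16 for Tnfrsf1a and 1.25 for Tnfrsf1b. For Tnfrsf1a the log2 ratios were 0.19, 0.26 and 0.19, and for Tnfrsf1b 0.20, 0.41 and 0.35, in the order of the mice.

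To compare genes with each other, levels were divided by the length of the longest matched transcript, and levels in the next sentences are CPM per kb. Tnfrsf1a stood at 72.2 ± 2.999 in DSS and 62.5 ± 4.33 in control, and Tnfrsf1b at 40.8 ± 4.88 in DSS and 32.6 ± 1.79 in control (SD, n = 3 each). Fas came next, at 13.5 ± 2.26 in DSS and 7.23 ± 1.69 in control. Tnfsf9 was the highest of the 6 ligands, at 5.34 ± 0.0522 in DSS and 6.84 ± 0.404 in control, and its range overlapped that of Fas in control and not in DSS. Tnfsf15, Cd40 and Tnf followed, at 3.96 ± 1.55, 2.87 ± 0.0507 and 2.27 ± 0.172 in DSS and at 2.46 ± 0.782, 1.61 ± 0.172 and 1.49 ± 0.467 in control. In DSS the range of Tnfsf15 overlapped those of Tnfsf9, Cd40 and Tnf, while Cd40 and Tnf did not overlap, and in control the ranges of Tnfsf15, Cd40 and Tnf overlapped. Tnfsf10 and Tnfsf13b were scarce, at 0.281 ± 0.0179 and 0.262 ± 0.0361 in DSS with overlapping ranges, and at 0.213 ± 0.00481 and 0.517 ± 0.158 in control. Tnfsf18 ranked 10 of 10 in DSS, at 0.0826, and 5 of 10 in control, at 4.89.

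**Figure D2:**
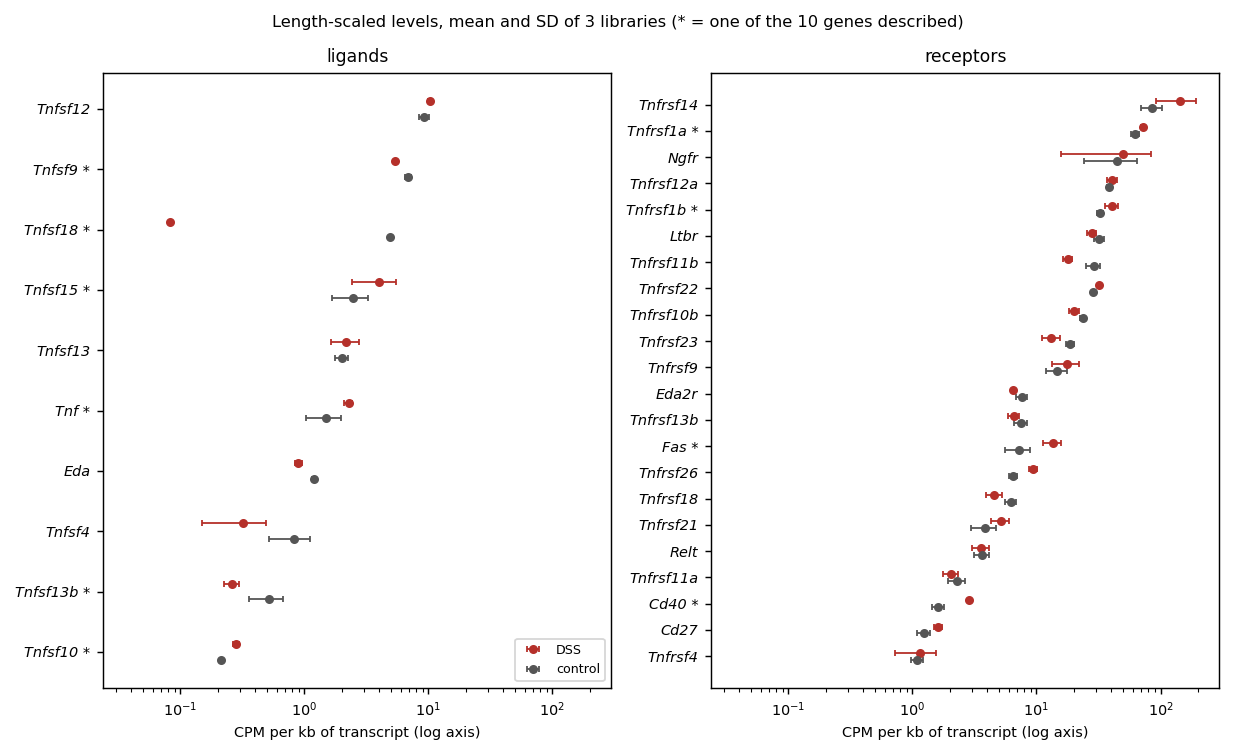
Mean level per kb of transcript (log axis, with SD of 3 libraries) of the 32 TNF superfamily genes at a mean of at least 1 CPM, DSS in red above control in grey, ligands at left and receptors at right, ordered by the control level. Receptors reach higher levels than ligands, and Tnfsf18 alone among these genes moves by more than one decade, to 0.0826 in DSS against 4.89 in control.

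The rest of the superfamily was 12 ligands and 24 receptors, which the choice of the 10 had left out, so they are not an unselected set either. Of the 12 other ligands 6 were tested, and none passed by edgeR's quasi-likelihood test, where 13.3% of all genes did (3 had an unadjusted p under 0.05, and 0 passed by DESeq2 or limma-voom). Their median log2 fold change was -0.20. Tnfsf12, which encodes TWEAK, was at 14.7 ± 0.544 CPM in DSS and 13.3 ± 1.27 CPM in control (edgeR adjusted p = 0.395), and Tnfsf13, which encodes APRIL, at 3.07 ± 0.774 CPM in DSS and 2.82 ± 0.361 CPM in control (edgeR adjusted p = 0.765). Tnfsf12 and Tnfsf13 share 47.4 and 58.4% of their words of 31 bases with other genes, a read-through transcript above all, so their separate levels are uncertain. By DESeq2 with the mouse as a block none passed, and Tnfsf14 and Tnfsf8 were given no adjusted p in that fit. With the same block in edgeR 3 ligands fell, where 12.7% of all genes did. They were Eda, which encodes ectodysplasin, at 4.55 ± 0.290 CPM in DSS and 6.12 ± 0.269 CPM in control (edgeR adjusted p = 0.055, with the block 0.0427, by DESeq2 with the block 0.292), Tnfsf4, the ligand of OX40, at 0.588 ± 0.312 CPM in DSS and 1.51 ± 0.558 CPM in control (0.0954, with the block 0.0464, by DESeq2 with the block 0.124), and Tnfsf14, the ligand LIGHT, named after its value was seen, at 0.417 ± 0.0339 CPM in DSS and 1.10 ± 0.512 CPM in control (0.0661, with the block 0.0276; 0.0397 without the control library of mouse 1718). Of the 6 not tested, Cd40lg and Cd70 were at 0 in all 6 libraries, and the others averaged at most 0.200 CPM over all libraries.

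Of the 24 other receptors 21 were tested, of which 1 rose and 2 fell by edgeR, where 7.37% of all genes rose and 5.91% fell. Tnfrsf11b, osteoprotegerin, a soluble decoy for the ligands RANKL and TRAIL, fell to 50.5 ± 4.03 CPM in DSS, against 81.7 ± 10.6 CPM in control (log2 fold change -0.69 ± 0.11 SE, edgeR adjusted p = 0.00732), and kept its call whichever library or mouse was left out (9 fits). Its libraries were at 50.6, 54.5 and 46.5 CPM in DSS and 79.8, 93.2 and 72.2 CPM in control, with no overlap. Tnfrsf23, a mouse decoy receptor for TRAIL, fell to 44.2 ± 7.39 CPM in DSS, against 62.5 ± 5.04 CPM in control (log2 fold change -0.50 ± 0.12, edgeR adjusted p = 0.0381). This call was lost without any single library other than that of DSS 1717 and without mouse 1716 or mouse 1718 (adjusted p up to 0.179). Tnfrsf26, a neighbour of Tnfrsf23 on chromosome 7, rose to 29.2 ± 2.13 CPM in DSS, against 20.2 ± 1.37 CPM in control (log2 fold change 0.53 ± 0.09, edgeR adjusted p = 0.00925), and lost its call without mouse 1717 or mouse 1718 (up to 0.119). Tnfrsf22, which stands between them and is the other TRAIL decoy, was at 133 ± 2.61 CPM in DSS and 119 ± 0.999 CPM in control and did not pass (edgeR adjusted p = 0.126). Tnfrsf22 and Tnfrsf23 share 38.3 and 26.7% of their words of 31 bases with other genes, mostly with each other, so reads may be split wrongly between them, and all 3 overlap the antisense gene E230032D23Rik.

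With the mouse as a block in edgeR 3 receptors rose and 3 fell, where 12.3% of all genes rose and 12.7% fell, the added ones being Tnfrsf14 and Tnfrsf9 (higher) and Tnfrsf10b (lower). By DESeq2 with the block 2 rose and 2 fell, where 1470 of the 19869 genes in the fit rose and 1569 fell. Tnfrsf9 (adjusted p = 0.213) and Tnfrsf10b (0.129) did not pass by DESeq2 with the block. Tnfrsf14, HVEM, the receptor of LIGHT, had the highest level per kb of the family and was at 203, 102 and 131 CPM in DSS and 104, 86.1 and 71.4 CPM in control (edgeR adjusted p = 0.101, with the block 0.00823, by DESeq2 0.0217, and without the DSS library of mouse 1717 0.0462). The groups overlapped, and each mouse was higher in DSS. Tnfrsf21, a death receptor, was at 18.6 ± 3.14 CPM in DSS and 13.9 ± 3.10 CPM in control, and Cd27 at 2.50 ± 0.174 CPM in DSS and 1.92 ± 0.228 CPM in control, and neither passed (edgeR adjusted p = 0.191 and 0.192). Ngfr, the p75 neurotrophin receptor, was at 302, 143 and 71.2 CPM in DSS and 225, 153 and 84.7 CPM in control, a spread between mice far beyond that between groups (edgeR adjusted p = 0.881). Ltbr, the lymphotoxin receptor, was at 59.0 ± 5.09 CPM in DSS and 67.1 ± 5.99 CPM in control (edgeR adjusted p = 0.244), and Tnfrsf12a, the TWEAK receptor, at 40.0 ± 3.66 CPM in DSS and 38.0 ± 1.71 CPM in control (0.628). Eda2r, Relt, Tnfrsf11a and Tnfrsf4 did not pass either (edgeR adjusted p = 0.151 to 0.968).

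**Figure D3:**
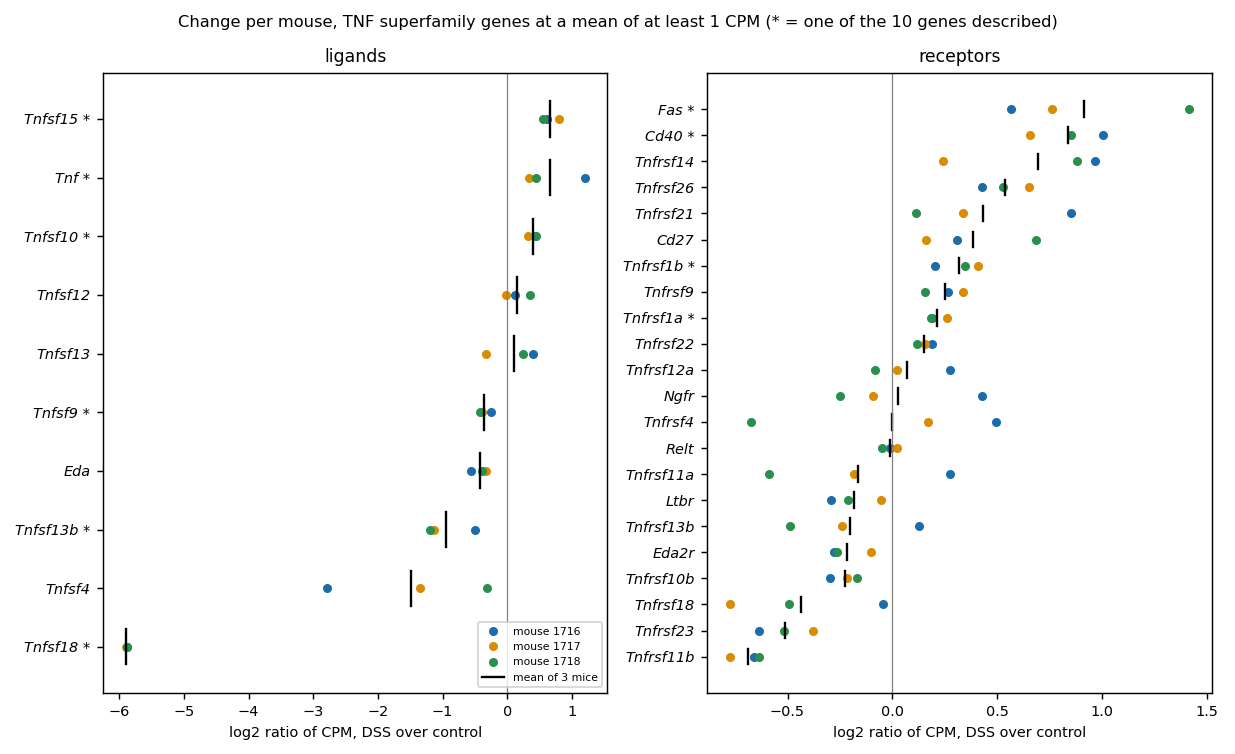
Log2 ratio of CPM, DSS over control, in each of the 3 mice (coloured points; black tick, mean) for the superfamily genes at a mean of at least 1 CPM, ligands at left and receptors at right on different axes, sorted by the mean. Tnfsf18 lies near -5.89 in all 3 mice, while Fas spreads from 0.57 to 1.41 and Tnfsf4 from mouse to mouse more widely still.

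Set beside the ligands, the partner receptors in the same cultures ranged from abundant to nearly absent. Tnfrsf18, the receptor of the Tnfsf18 ligand, was at 5.45 ± 0.822 CPM in DSS and 7.35 ± 0.764 CPM in control and did not pass (edgeR adjusted p = 0.108). Tnfrsf9, the partner of Tnfsf9, was at 37.5 ± 9.41 CPM in DSS and 31.2 ± 6.01 CPM in control, higher in DSS in each of the 3 mice, and passed with the block in edgeR (adjusted p = 0.0261), not by DESeq2 with the block (0.213) and not in edgeR without it (0.435); it overlaps Camta1 on the opposite strand. Tnfrsf25, the partner of Tnfsf15, was close to 1 CPM, at 1.10 ± 0.390 CPM in DSS and 0.729 ± 0.196 CPM in control (edgeR adjusted p = 0.302). Tnfrsf10b, the TRAIL receptor that carries a death domain, was at 64.2 ± 5.68 CPM in DSS and 75.1 ± 3.32 CPM in control, lower in DSS in each mouse (edgeR adjusted p = 0.118, with the block 0.0253, by DESeq2 with the block 0.129). Of the BAFF receptors, Tnfrsf13b was at 4.91 ± 0.519 CPM in DSS and 5.66 ± 0.686 CPM in control, Tnfrsf13c at 0.854 ± 0.0591 CPM in DSS and 0.763 ± 0.136 CPM in control, and Tnfrsf17 averaged 0.246 CPM in DSS and 0.128 CPM in control and was not tested. The ligands of Cd40 and Fas were at or near the limit of this depth, as Cd40lg was at 0 in every library and Fasl averaged 0.0190 CPM in DSS and 0.0338 CPM in control.

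Some of these genes sit together in the genome. Tnfsf4 lies 76.5 kb from Tnfsf18 on chromosome 1, with Fasl 275 kb beyond. Tnfsf4, at 4 to 37 counts per library, was lower in DSS in each of the 3 mice, as Tnfsf18 was. Of all genes tested 56.9% kept the same direction in all 3 mice. Tnf lies between Ltb and Lta on chromosome 17, Ltb averaging 0.0379 CPM in DSS and 0.0365 CPM in control and Lta 0.228 CPM in DSS and 0.0534 CPM in control. Tnfsf9 is followed on the same chromosome by Cd70, at 0 in every library, and by Tnfsf14. Tnfsf15 has Tnfsf8 at 86.1 kb, at 0.663 ± 0.418 CPM in DSS and 0.643 ± 0.194 CPM in control (edgeR adjusted p = 0.972). Tnfrsf1a has Ltbr at 35.8 kb, and in each of the 3 mice Tnfrsf1a was higher in DSS and Ltbr lower.

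Downstream of the receptors, 5 of 18 tested adaptors and cell death genes rose and 1 fell, where 7.37% of all genes rose and 5.91% fell. Their median log2 fold change was 0.16. This list and the relay and shedding lists below were chosen with earlier results of these data known. Nothing is read from their shares. Bid, which caspase-8 cleaves to link death receptors to mitochondria, rose to 9.07 ± 0.904 CPM in DSS, against 4.34 ± 0.275 CPM in control (edgeR adjusted p = 0.00291). Birc3 and Birc2, ubiquitin ligases recruited by TRAF2 that hold back caspase-8, rose by log2 fold changes of 0.96 ± 0.11 and 0.79 ± 0.14 (edgeR adjusted p = 0.00239 and 0.0108; Birc3 shares 11.3% of its words of 31 bases with other genes), and Mlkl, the protein that breaches the membrane in necroptosis, to 48.0 ± 11.5 CPM in DSS, against 24.0 ± 2.01 CPM in control (0.011). Calls were lost for Birc2 without the control library of mouse 1717, without mouse 1717 or without mouse 1718 (adjusted p up to 0.134), and for Mlkl without the control library of mouse 1717, without mouse 1716 or without mouse 1718 (up to 0.0858). Named after their values were seen, Ripk3, the kinase that acts on Mlkl, fell to 45.6 ± 1.54 CPM in DSS, against 55.8 ± 1.87 CPM in control (edgeR adjusted p = 0.0234), and Cflar, a brake on caspase-8, rose by 0.28 ± 0.07 (0.04). The call of Ripk3 was lost in each of 9 fits with 1 library or 1 mouse removed except that without the DSS library of mouse 1718, and that of Cflar in all 9 (adjusted p up to 0.168 and 0.188) and with no filter on low counts (0.056).

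Traf1, Traf2, Tradd and Fadd, adaptors that bind products of the 10 genes directly, did not pass in edgeR's unpaired fit of all 6 libraries. Nor did Traf3, Traf5 and Traf6, named after their values were seen (edgeR adjusted p = 0.572, 0.958 and 0.103). Traf1 was at 11.9 ± 3.61 CPM in DSS and 7.44 ± 0.932 CPM in control (edgeR adjusted p = 0.0888, with the block 0.0251, by DESeq2 0.0495, and without the DSS library of mouse 1716 0.0372) and Traf2 at 44.4 ± 4.46 CPM in DSS and 35.7 ± 1.70 CPM in control (0.0583, with the block 0.00958). Tradd, which joins Tnfrsf1a, was at 10.8 ± 0.332 CPM in DSS and 12.9 ± 0.407 CPM in control, and Fadd, which joins Fas, at 6.37 ± 0.386 CPM in DSS and 7.25 ± 0.207 CPM in control (edgeR adjusted p = 0.0977 and 0.313). With the block in edgeR 8 adaptors and cell death genes rose and 1 fell, where 12.3% of all genes rose and 12.7% fell. The third added gene was Xiap (adjusted p = 0.0292, and 0.0498 by limma-voom without the block). By DESeq2 with the block 6 rose and 1 fell, where 1470 of the 19869 genes in the fit rose and 1569 fell. Traf2 (0.0677) and Xiap (0.15) did not pass by DESeq2 with the block.

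Of 17 genes that relay the signal by ubiquitin chains and kinases 6 rose and none fell, where 7.37% of all genes rose and 5.91% fell. Their median log2 fold change was 0.09. This list was also chosen with earlier results known, so nothing is read from its share. Ikbkg, which encodes NEMO, the regulatory subunit of the kinase that frees NF-kappaB, rose to 259 ± 25.8 CPM in DSS, against 115 ± 2.86 CPM in control (log2 fold change 1.18 ± 0.09, edgeR adjusted p = 0.000719). It overlaps G6pdx on the opposite strand over 19712 bases, and the labels do not state whether counting used strand. Its catalytic partners Chuk and Ikbkb had log2 fold changes of 0.05 ± 0.06 and 0.09 ± 0.08 and did not pass (edgeR adjusted p = 0.705 and 0.548). Cyld, a deubiquitinase that trims these chains, rose to 79.5 ± 3.90 CPM in DSS, against 42.3 ± 2.46 CPM in control (edgeR adjusted p = 0.000852), and Ikbke, a kinase of the interferon branch, by 0.69 ± 0.07 (0.0015). Tnip1, a partner of the inhibitor A20, rose by 0.95 ± 0.13 (edgeR adjusted p = 0.00437; up to 0.0769 without mouse 1717 or mouse 1718). Named after their values were seen, Rnf31, the catalytic subunit of the linear ubiquitin ligase, rose by 0.51 ± 0.09 (0.0124) and Tbk1 by 0.47 ± 0.09 (0.0162). Rnf31 lost its call without the control library of mouse 1717 and without any 1 mouse (up to 0.104). Tbk1 lost its call without any 1 control library or any 1 mouse (up to 0.107). Rnf31 overlaps Irf9 on the same strand over 123 bases, and shares 2.99% of its words of 31 bases with other genes.

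Of 7 genes of receptor and ligand shedding 1 fell and none rose, a share near the 13.3% of all genes that passed. Timp3, the inhibitor of the sheddase ADAM17, fell to 161, 137 and 158 CPM in DSS, against 427, 430 and 472 CPM in control (log2 fold change -1.54 ± 0.09, edgeR adjusted p = 0.000438). The groups were far apart, and the call held whichever library or mouse was removed. Timp3 lies inside Syn3 on the opposite strand. Erap1, an aminopeptidase that has been tied to shedding of Tnfrsf1a, was at 70.0, 38.2 and 94.1 CPM in DSS and 35.5, 30.2 and 40.6 CPM in control. Its groups overlapped, and it passed with the block (edgeR adjusted p = 0.00547), by DESeq2 (0.00878), without the DSS library of mouse 1717 (0.00816) and without mouse 1717 (0.0428), not in the unpaired fit of all libraries (0.0827). Rhbdf2 and Frmd8, partners of ADAM17, did not pass (0.0923 and 0.151), though Frmd8 did with the block (0.00691). Named after its value was seen, Adam17 was at 89.8 ± 10.3 CPM in DSS and 81.7 ± 3.24 CPM in control. Adam10, named in the same way, was at 157 ± 21.1 CPM in DSS and 173 ± 29.7 CPM in control. Neither passed (edgeR adjusted p = 0.391 and 0.566).

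**Figure D4:**
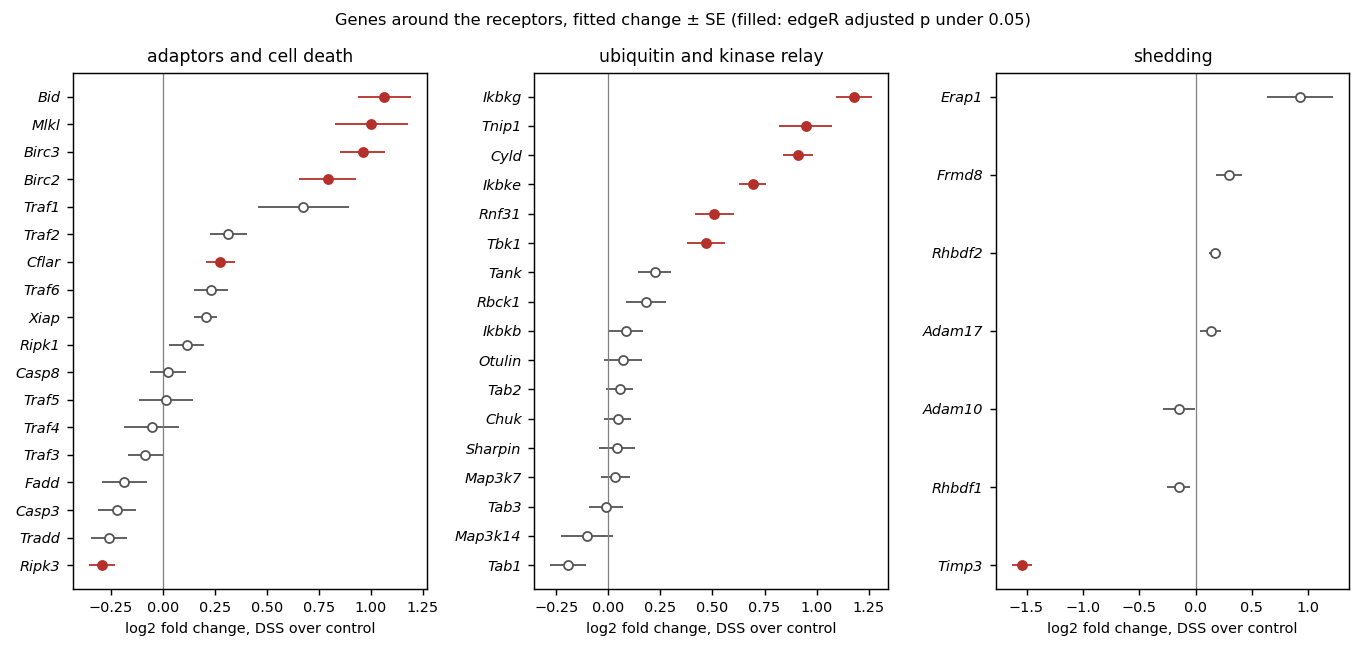
Fitted log2 fold change ± SE, DSS over control (n = 3 each), of the adaptor and cell death genes, the ubiquitin and kinase relay and the shedding genes. Filled red points passed edgeR's test; Ikbkg at 1.18 and Timp3 at -1.54 are the extremes of their panels among called genes.

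As a description of pattern, Pearson's r of log2(CPM + 1) over the 6 libraries was computed between Tnfsf18 or Cd40 and 12571 genes at a mean of at least 5 CPM. Nearest to Tnfsf18 were Pxdn (r = 0.9998), Aspn (0.998) and Fam102b (0.998), and nearest to Cd40 were Psap, Ccl5 and Mt2 (r = 0.996 each). Any gene with tight groups scores high here, since the 6 points fall into the DSS and control groups.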

How the data were processed

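RNA-seq libraries were directional and followed removal of ribosomal RNA, per the labels' protocols. The authors deposited estimated counts per transcript, unscaled, made with kallisto on GRCm38/mm10 per the submitters' processing notes; kallisto's version, settings and use of strand are not stated there. Counts were summed per gene symbol over 120299 transcripts and rounded to whole numbers. The table had no column outside the 6 libraries. After filterByExpr (10 as minimum count, 15 as minimum total) and TMM scaling, edgeR's quasi-likelihood test was run on the group alone; p-values of 19869 genes were adjusted after Benjamini and Hochberg, and 0.05 was the threshold. SE is the log2 fold change over the square root of F. Alternatives were RLE factors, DESeq2, limma-voom, no filter, no ribosomal RNA rows, the mouse as a block, and leaving out each library or mouse. The DSS and control libraries pair by mouse number in the labels. Their deviations from group means correlated across genes with r = 0.27 to 0.55 within mice, against -0.44 to 0.01 between mice. The deviations of a group sum to 0 for each gene, so the values between mice are not independent of those within mice. Kallisto can misassign reads shared by similar genes: members shared 0 to 2.98% of words of 31 bases with other genes in GENCODE M21, whose transcripts also gave lengths. Named besides the members were superfamily genes at a mean of at least 1 CPM, direct partners, and the 4 signalling genes of each list with the smallest p. Some others are marked as named after their values were seen. Chuk, Ikbkb, Xiap, Tnfsf8, Lta, Ltb and Cd70 were also named outside these rules. Members and lists were chosen with earlier results of these data known. Tests used edgeR 4.0.16, DESeq2 1.42.0 and limma 3.58.1 in R 4.3.3; tables and figures used pandas 2.3.3 and matplotlib 3.10.9 in Python 3.11.15.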

Additional observations from a re-analysis of the deposited data

How the results depend on the processing

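With the mouse as a replicate block 4965 genes passed, against 2639 without it, and the counts among other ligands, other receptors and shedding genes were 3, 6 and 3. DESeq2 called 2 shedding genes and 2722 genes in all, and DESeq2 with the replicate block 3 and 3039. Leaving out a library or a mouse gave 649 to 2418 genes in all, with the lowest counts without mouse 1717 (649) and mouse 1718 (664). It gave 0 to 1 other ligands, 1 to 4 other receptors, 2 to 5 adaptors and cell death genes, 3 to 6 relay genes and 1 to 2 shedding genes. All of these fits have fewer libraries than the full one. Without mouse 1716 the number was 1827 genes, from as many libraries as without mouse 1717 or mouse 1718. Why the numbers differ was not tested. The median log2 fold change of the 10 members was 0.32 to 0.40 in the fits with a library or a mouse left out. Each of the 10 members kept its direction in all 16 alternatives; Tnfsf18 ran from -5.90 to -5.67 and Tnf from 0.36 to 0.77. With 3 counts per DSS library, the size of the Tnfsf18 difference is limited by depth, as are the transcript shares of Cd40, Tnfsf9 and Tnfsf13b.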
